A study of Mus musculus with 6 samples.

Results

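De novo lipogenesis is the route by which the liver turns sugar carbon into fatty acids. This report describes the transcripts of 10 of its genes in the livers of mice lacking SHP: the regulators Srebf1, Mlxipl and Thrsp and the enzymes Acly, Acaca, Acacb, Fasn, Scd1, Elovl6 and Me1. The genes were taken by name from the 19594 genes with read counts, where each name occurred once, and all 10 were among the 11794 genes that passed the filter on low counts. The libraries were made from liver RNA of 3 wild-type and 3 SHP -/- mice, all male, of a C57BL6 background and 2 months old, after selection of capped RNA with a variant of the cap-binding protein EIF4E. SHP, the product of Nr0b2, lacks the DNA-binding domain of other nuclear receptors and acts as a repressor of transcription factors. Levels are those of RNA that remained after the selection for capped RNA, and how complete this selection was is not known. The labels do not describe the knockout allele, the substrain or the feeding state of the mice.

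In the pathway, citrate leaves the mitochondrion and is cut to acetyl-CoA by ATP citrate lyase, acetyl-CoA carboxylase turns this into malonyl-CoA, and fatty acid synthase builds palmitate from both. Elongation and desaturation then give the longer and the unsaturated fatty acids, and the reducing power comes as NADPH, partly from malic enzyme. In liver, insulin drives the pathway largely through the transcription factor SREBP-1c, a product of Srebf1, and sugar drives it through ChREBP, the product of Mlxipl.

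Totals over genes were between 4494353 and 7225842 counts per library. Nr0b2 was at 14.5 ± 2.87 CPM (counts per 1000000 of the scaled library size) in wild type, with 8.01 ± 2.03 CPM in knockout (SD, n = 3 each), so its reads were fewer but not absent (limma voom, adjusted p = 0.0442). Its adjusted p missed 0.05 in 5 of 6 fits with 1 library removed, the highest being 0.123. Mitochondrially encoded genes held 10.2% to 10.3% of the counts in wild type, and in knockout 5.66% to 7.10%. Of the genes tested, 14.5% passed an adjusted p of 0.05 (limma voom, Benjamini-Hochberg), 7.58% as higher and 6.94% as lower in knockout, and for 35.1% the ranges of the groups did not overlap. Of these calls, 52.2% were towards higher, and 40% where libraries were scaled to totals without mitochondrial genes. The 1713 calls became 620 when wild-type library 3 was removed, and 1065 when knockout library 1 was.

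Of the 10 lipogenic genes, Me1 fell, 0 rose and 9 did not pass, a share of calls no higher than among all genes tested. At an unadjusted p under 0.05 there were 3 (Me1, Acly and Scd1), all lower in knockout. The share over all genes tested was 30.6%, counting both directions. Me1 transcripts in knockout liver were at 0.415 times the wild-type level (95% interval 0.322 to 0.535). For the other 9 genes the 95% intervals of the fold lay between 0.658 and 1.57, so a 2-fold difference in either direction lay outside each of them. The median log2 difference of the 10 genes was −0.14, beside −0.0064 over all genes tested; it was −0.069 with knockout library 2 removed and −0.25 with knockout library 1 removed. In 4 of the 10 genes (Me1, Acly, Acaca and Scd1) the highest knockout value was under the lowest wild-type value. None of the 10 had the reverse. Over all genes tested, the groups did not overlap for 35.1%, counting both directions.

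The sequences just upstream of 4 of the genes are shown. These are Me1, which fell, Acly, which was lower in every knockout library without passing, and Fasn and Thrsp, which did not pass and whose groups overlapped. Each is the 250 bases before the RefSeq start site in GRCm38.p6, 5′ to 3′ on the strand of the gene, which is the minus strand for all 4. Capitals mark matches, on either strand, to the CCAAT box (CCAAT) or the GC box (GGGCGG).
Me1, chr9:86695915-86696164: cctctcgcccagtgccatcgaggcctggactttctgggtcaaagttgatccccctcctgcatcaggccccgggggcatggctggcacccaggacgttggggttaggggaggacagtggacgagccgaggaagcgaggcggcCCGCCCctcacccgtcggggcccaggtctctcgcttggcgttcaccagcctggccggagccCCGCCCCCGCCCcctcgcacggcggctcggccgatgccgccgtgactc
Acly, chr11:100528001-100528250: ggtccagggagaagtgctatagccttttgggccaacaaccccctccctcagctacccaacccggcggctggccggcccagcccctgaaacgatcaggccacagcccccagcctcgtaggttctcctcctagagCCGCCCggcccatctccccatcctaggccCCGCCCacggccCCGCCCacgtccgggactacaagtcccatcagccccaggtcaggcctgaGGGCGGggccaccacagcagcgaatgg
Fasn, chr11:120824548-120824797: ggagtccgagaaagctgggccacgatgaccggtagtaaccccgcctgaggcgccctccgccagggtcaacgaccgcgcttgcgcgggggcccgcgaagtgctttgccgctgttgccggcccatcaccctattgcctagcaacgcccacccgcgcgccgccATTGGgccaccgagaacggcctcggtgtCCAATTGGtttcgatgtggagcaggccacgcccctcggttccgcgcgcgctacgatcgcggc
Thrsp, chr7:97417551-97417800: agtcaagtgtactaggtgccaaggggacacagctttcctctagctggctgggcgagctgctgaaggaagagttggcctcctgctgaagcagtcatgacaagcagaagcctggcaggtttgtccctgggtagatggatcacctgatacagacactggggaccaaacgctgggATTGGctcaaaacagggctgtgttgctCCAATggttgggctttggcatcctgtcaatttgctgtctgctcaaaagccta

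Over windows of 300 bases (250 before and 50 after a start site), 9 of the 10 genes matched RefSeq, with 13 windows, and Scd1 had no entry. A CCAAT box was found in 8 of the 13 windows, from 7 genes, and in 37.4% of all 32851 windows of the same length. The shown window of Me1 had none, its other window held one upstream of the start site, and the shown window held 4 GC boxes, the last at position 16 after the start site. A GC box was found in 5 of the 13 windows and in 35.7% of all windows. The Acly window also held a CCAAT box at position 38 after the start site, outside the bases shown. Windows of Srebf1 and Mlxipl, whose groups overlapped, held both boxes. That of Acaca, lower in every knockout library, held neither. A link between these boxes and the differences in level was not tested. The hexamer CACGTG, an E-box, occurred in 1 window (Mlxipl) and in 7.15% of all, and the sterol regulatory element TCACNCCAC in 1 window (also Mlxipl) and in 1.24% of all. Its strict form TCACCCCAC occurred in 0 of the 13 and in 0.551% of all windows. Each strict match is also a match to the looser form. In Fasn the last pair of CCAAT matches, on opposite strands, overlap. A match describes these letters only.

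Me1 (ENSMUSG00000032418; mm9 chromosome 9, 86476008 to 86589802, minus strand, with later positions on the same build) encodes cytosolic malic enzyme, which makes NADPH while turning malate into pyruvate. Its counts were 203, 210 and 269 in wild-type libraries 1 to 3 and 73, 98 and 110 in knockout libraries 1 to 3. As levels these were 34.6, 43.7 and 42.7 CPM against 16.7, 19.2 and 14.8 CPM. The lowest wild-type library lay well above the highest knockout library. The difference on the log2 scale, with its SE, was −1.27 ± 0.17 (limma voom, adjusted p = 0.000541), and the log2 ratio of pooled counts in the authors' deposited table was −1.24. Leaving out each library in turn gave −1.38 to −1.15 (highest adjusted p = 0.00760). In bulk liver RNA, fewer cells with a transcript and less transcript per cell cannot be told apart.

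Malic enzyme has a mitochondrial paralogue, Me2, with 24 to 41 counts per wild-type library and 16 to 48 per knockout library, and a log2 difference of −0.19 ± 0.31 (adjusted p = 0.720). A further paralogue, Me3, had 4 counts in wild-type library 3 and 0 in the others, and was not tested. Over the 6 libraries, the profiles most like that of Me1 among 5094 other genes of at least 20 CPM were those of Fabp2, an intestinal-type fatty acid-binding protein, Aox1, an aldehyde oxidase, and C9, a complement component. Their root mean square distances from Me1, in centred log2 CPM, were 0.129, 0.131 and 0.147. Fabp2 was at 54.3 ± 7.93 CPM in wild type, against 22.3 ± 2.93 CPM in knockout, Aox1 at 166 ± 34.0 and 62.8 ± 6.77 CPM, and C9 at 949 ± 99.0 and 440 ± 107 CPM (SD, n = 3 each). Among the lipogenic genes the nearest to Me1 were Acly and Elovl6, at distances of 0.542 and 0.543, while Acaca and Scd1 lay 0.0470 from each other and Acly lay 0.0704 from Scd1.

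**Figure D1:**
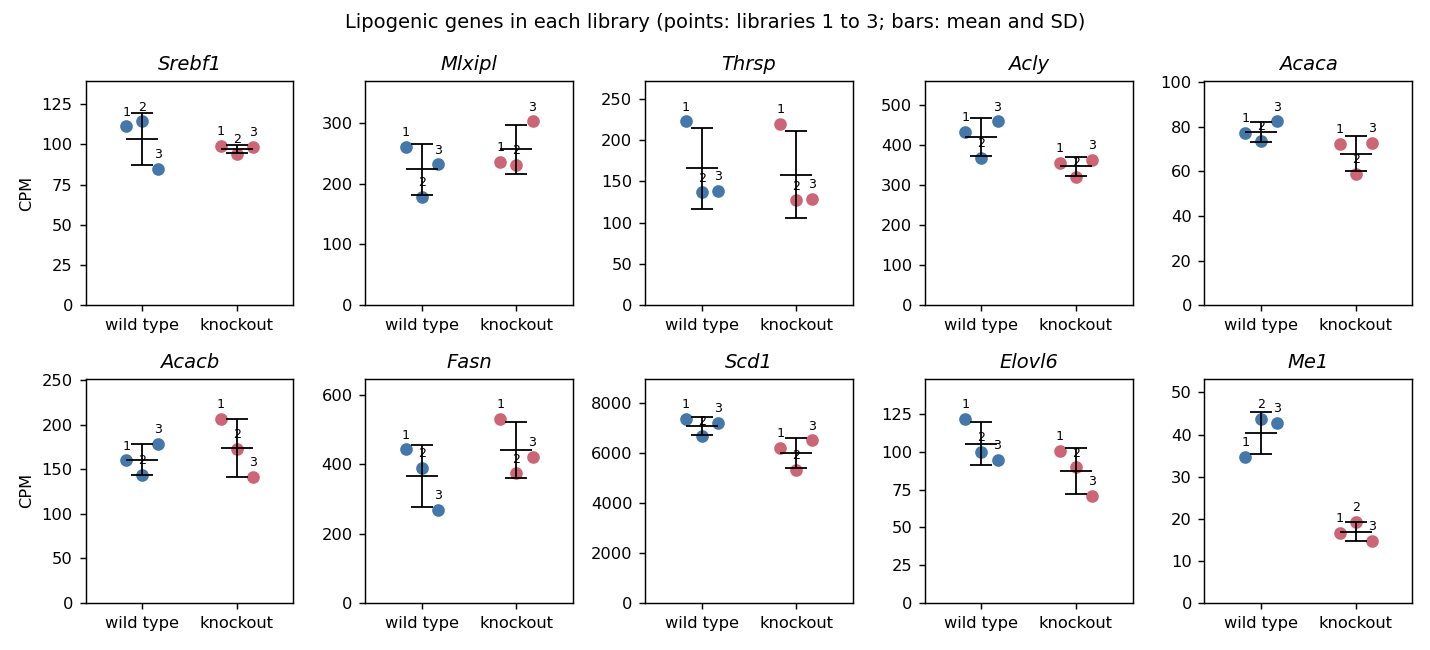
Level of each lipogenic gene in CPM, in 3 wild-type (blue) and 3 knockout (red) libraries, numbered as in the labels, with mean and SD as bars; each axis starts at 0. Me1 separates widely between groups, from 40.3 to 16.9 CPM on average, while the groups of Acly, Acaca and Scd1 separate narrowly and the other 6 overlap.

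Srebf1 and Mlxipl, which encode the main lipogenic transcription factors, did not pass. Srebf1 (ENSMUSG00000020538; chromosome 11, 60012591 to 60036083, minus strand) was at 111, 114 and 85.0 CPM in wild type, against 98.9, 94.1 and 98.3 CPM in knockout. The knockout libraries lay inside the wild-type range, with a log2 difference of −0.076 ± 0.13 (adjusted p = 0.729), or 0.0072 with wild-type library 2 removed. Counts per gene do not separate the SREBP-1a and SREBP-1c transcripts, which start at different promoters. Mlxipl (ENSMUSG00000005373; chromosome 5, 135582761 to 135614254, plus strand) was at 261, 178 and 232 CPM in wild type, against 237, 231 and 303 CPM in knockout. Wild-type library 2 was the lowest and knockout library 3 the highest, with the rest between them, and the log2 difference was 0.21 ± 0.14 (adjusted p = 0.365).

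Thrsp (ENSMUSG00000035686; chromosome 7, 104561448 to 104566240, minus strand), also called Spot 14, encodes a small nuclear and cytosolic protein that promotes lipogenesis and responds to thyroid hormone and carbohydrate. It was the most variable of the 10 genes within a group, at 222, 137 and 138 CPM in wild type, against 219, 127 and 129 CPM in knockout. In each group library 1 stood above the other two, and the numbers 1 to 3 are not known to link mice across groups. The log2 difference was −0.090 ± 0.21 (adjusted p = 0.813; 95% interval of the fold 0.687 to 1.29), and it turned positive, at 0.14 when wild-type library 1 was removed, 0.054 for knockout library 2 and 0.041 for knockout library 3. Its paralogue Mid1ip1, which promotes the joining of acetyl-CoA carboxylase into filaments, was at 26.6 ± 2.70 CPM in wild type, against 18.4 ± 4.52 CPM in knockout (SD, n = 3 each; log2 difference −0.57 ± 0.19, adjusted p = 0.0582), and did not pass, though it did under 3 of the 12 alternative fits.

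Acly and Acaca, between citrate and malonyl-CoA, did not pass, though every knockout library was below every wild-type library. Acly (ENSMUSG00000020917; chromosome 11, 100337667 to 100389314, minus strand), ATP citrate lyase, was at 432, 367 and 458 CPM in wild type, against 354, 320 and 363 CPM in knockout. The groups were separated only by the gap between 367 and 363 CPM, and the log2 difference of −0.27 ± 0.11 did not pass (adjusted p = 0.109; unadjusted p = 0.0257). Acaca (ENSMUSG00000020532; chromosome 11, 83943174 to 84215153, plus strand), the cytosolic carboxylase whose malonyl-CoA feeds synthesis, was at 77.3, 73.6 and 82.4 CPM in wild type, against 72.2, 58.9 and 72.6 CPM in knockout. Here too the gap was narrow, and the log2 difference was −0.20 ± 0.12 (adjusted p = 0.286). A gene on the opposite strand, with up to 213 counts over all libraries, overlaps Acaca, as does Rai1 with Srebf1 (301 counts); whether counting used the strand is not stated in the labels.

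Acacb (ENSMUSG00000042010; chromosome 5, 114596544 to 114700770, plus strand) encodes the carboxylase at the mitochondrial surface, whose malonyl-CoA restrains fatty acid oxidation. It was at 160, 144 and 178 CPM in wild type, against 206, 173 and 142 CPM in knockout, with overlapping groups and a log2 difference of 0.093 ± 0.14 (adjusted p = 0.688), or −0.034 with knockout library 1 removed. The ratio of Acacb to Acaca counts was 2.07, 1.95 and 2.16 in wild type and 2.85, 2.94 and 1.95 in knockout. Knockout libraries 1 and 2 were above, and knockout library 3 just below, all wild-type libraries. The difference in the log2 ratio was 0.30 (exact two-sided permutation test, p = 0.4, and 0.4 adjusted over 4 ratios).

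Fasn (ENSMUSG00000025153; chromosome 11, 120667254 to 120685492, minus strand), fatty acid synthase, was at 443, 391 and 267 CPM in wild type, against 530, 374 and 422 CPM in knockout. The range within each group was wider than the difference between the group means. Wild-type library 3 was the lowest of all 6 and knockout library 1 the highest. The log2 difference of 0.28 ± 0.17 did not pass (limma voom, adjusted p = 0.277). It was 0.070 with wild-type library 3 removed and 0.15 with knockout library 1 removed. Scd1 (ENSMUSG00000037071; chromosome 19, 44468945 to 44482043, minus strand), the desaturase that makes oleate and palmitoleate, was at 7338, 6667 and 7183 CPM in wild type, against 6183, 5318 and 6487 CPM in knockout. Every knockout library was lower, by a log2 difference of −0.24 ± 0.10 that did not pass (adjusted p = 0.124; unadjusted p = 0.0321). Elovl6 (ENSMUSG00000041220; chromosome 3, 129235304 to 129341413, plus strand), the elongase of saturated and monounsaturated chains, was at 122, 99.8 and 94.8 CPM in wild type, against 101, 89.7 and 70.7 CPM in knockout. Its groups overlapped by little, with a log2 difference of −0.30 ± 0.14 (adjusted p = 0.177).

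**Figure D2:**
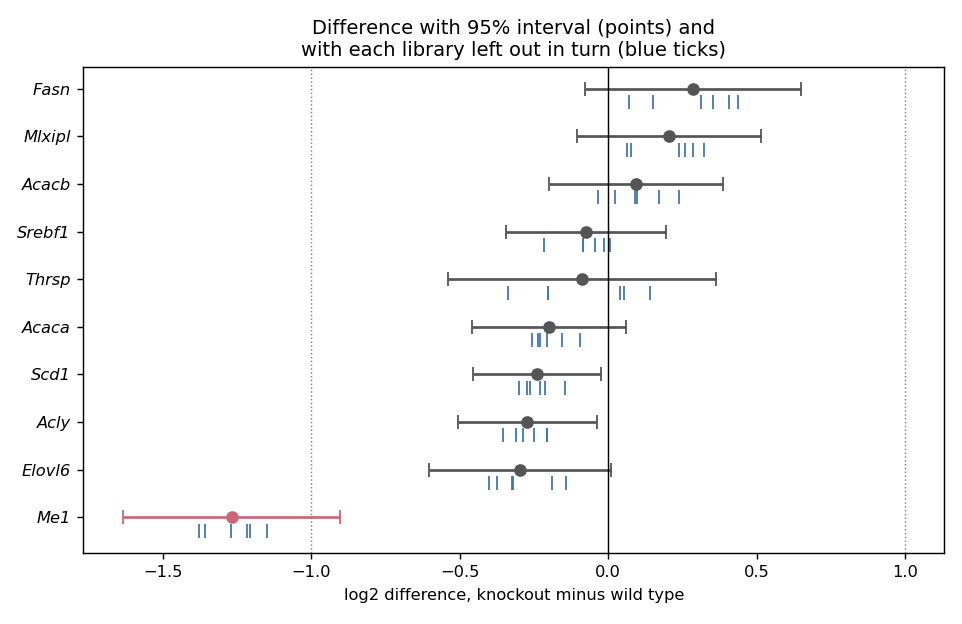
Log2 difference (knockout minus wild type) of each gene with its 95% interval, and, as blue ticks, the values with each of the 6 libraries left out; dotted lines mark a 2-fold difference. Me1 lies apart at −1.27, and no interval of the other 9 genes reaches a 2-fold difference.

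Ratios within a library do not depend on how libraries are scaled. The Me1 to Fasn count ratio was 0.0784, 0.112 and 0.160 in wild type and 0.0316, 0.0517 and 0.0351 in knockout. The groups did not overlap, and the difference in the log2 ratio, knockout minus wild type, was −1.54 (exact two-sided permutation test, p = 0.1, the smallest that 3 against 3 can give; 0.2 adjusted over 4 ratios). The Scd1 to Fasn ratio was 16.6, 17.1 and 26.9 in wild type and 11.7, 14.2 and 15.4 in knockout. It too was lower in every knockout library, with a difference of −0.53 on the log2 scale (exact permutation p = 0.1), or −0.30 without wild-type library 3, where Fasn was lowest. The Mlxipl to Srebf1 ratio was 2.34, 1.56 and 2.73 in wild type and 2.39, 2.45 and 3.08 in knockout, with overlapping groups and a difference of 0.28 (exact permutation p = 0.4), or 0.052 without wild-type library 2.

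Per length of the counted regions, the 10 genes spanned more than 2 orders of magnitude. In wild type, Scd1 was at 1510 ± 75.1 CPM per kilobase, followed by Thrsp at 130 ± 38.4, Acly at 79.3 ± 8.85, Mlxipl at 41.7 ± 7.79 and Fasn at 37.3 ± 9.15 (SD, n = 3 each). Mlxipl and Fasn overlapped in range. Me1, Srebf1, Elovl6 and Acacb followed at 19.7 ± 2.43, 18.7 ± 2.92, 17.7 ± 2.40 and 16.7 ± 1.79 CPM per kilobase, each overlapping the next, and Acaca was lowest at 6.38 ± 0.364. In knockout the first 5 places were the same, and Me1 was in place 9, at 8.26 ± 1.10 CPM per kilobase, below Elovl6 at 14.6 ± 2.55 and above Acaca at 5.57 ± 0.639, with no overlap in range with either. Scd1 made up 79.8%, 81.2% and 82.0% of the summed CPM of the 10 genes in wild type, and 77.1%, 78.2% and 80.1% in knockout. The other 9 genes summed to 1663 ± 173 CPM in wild type, against 1645 ± 176 CPM in knockout.

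**Figure D3:**
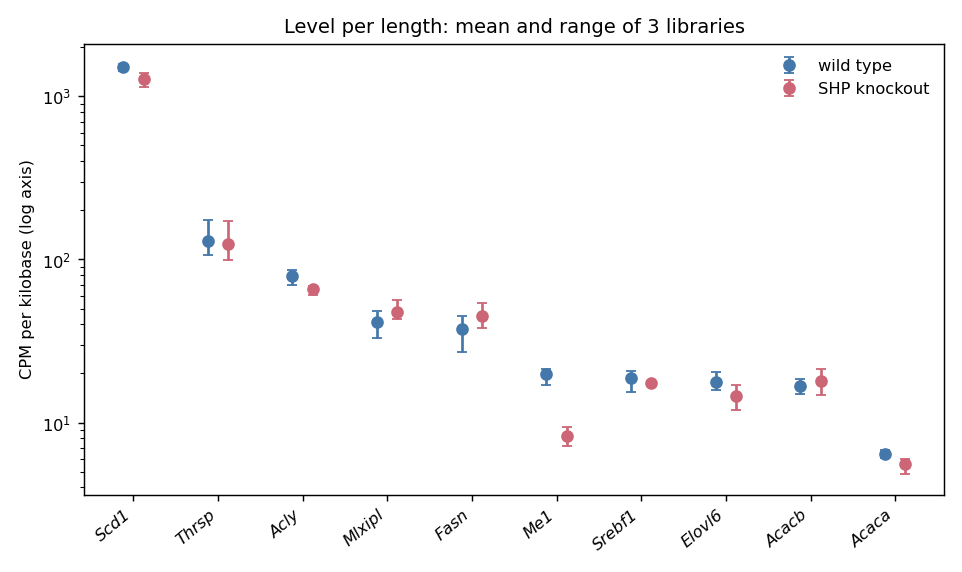
Level of each lipogenic gene in CPM per kilobase of counted region, on a log axis, as mean and range of 3 libraries of wild type (blue) and knockout (red), in the order of the wild-type means. Scd1 stands apart at 1510 and 1282, and Me1 moves from place 6, at 19.7, to place 9, at 8.26.

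Other genes of the pathway were read from 7 lists, and 2 further lists cover responses to feeding and the clock. Of all genes tested, 7.58% rose and 6.94% fell. Over the 9 lists, 24 of 136 tested genes rose, 12 fell and 100 did not pass. In the fit with wild-type library 3 removed, 9 rose and 6 fell, 1 of which (Gpam) had not passed with all libraries. Calls over all genes also dropped in that fit, to 340 higher and 280 lower of 12025 tested. The shares over all genes given beside each list are those of the fit with all libraries. The 9 lists have medians between −0.15 and 0.30, beside −0.0064 for all genes tested.

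Several genes of a broad list on the control of SREBP-1c activity rose, although Srebf1 itself did not pass. Of the 20 genes in this list, 6 rose, 0 fell and 14 did not pass (median log2 difference 0.079). Among all genes tested, 7.58% rose and 6.94% fell. Srebf2, the paralogue that drives cholesterol synthesis, rose from 52.8 ± 10.4 CPM to 87.9 ± 10.3 (log2 difference 0.75 ± 0.15, adjusted p = 0.00599). Irs2, an adaptor of the insulin receptor, rose from 21.3 ± 8.27 to 51.2 ± 15.2 CPM, Rxra, the partner of LXR, from 550 ± 17.0 to 751 ± 94.9 CPM, and Scap, the escort of SREBP from the endoplasmic reticulum, from 68.5 ± 12.3 to 94.5 ± 1.89 CPM (SD, n = 3 each). Insig1 and Insig2, which retain SREBP in the endoplasmic reticulum, had log2 differences of 0.070 ± 0.13 and 0.087 ± 0.13 and did not pass. With wild-type library 3 removed 1 of the 20 rose, with knockout library 1 removed 2, and with knockout library 2 or 3 removed 3. Scap lost its call in 5 of the 6 fits without a library and with totals that exclude mitochondrial genes (highest adjusted p = 0.110), Rxra without wild-type library 3 or knockout library 1, and Irs2 without wild-type library 3 and under robust variance moderation.

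Genes of sugar use linked to ChREBP moved in both directions: of 12 tested, 1 rose, 3 fell and 8 did not pass (median 0.089). The shares among all genes tested were 7.58% risen and 6.94% fallen. G6pc, the glucose-6-phosphatase that releases glucose, was at 738, 997 and 1145 CPM in wild type, against 525, 444 and 359 CPM in knockout. It fell by 1.11 ± 0.16 on the log2 scale (adjusted p = 0.000834). Txnip, a glucose-induced gene, fell from 111 ± 33.1 to 52.7 ± 21.4 CPM (SD, n = 3 each). Khk, ketohexokinase, had a log2 difference of 0.32 ± 0.10 and Gpd1, glycerol-3-phosphate dehydrogenase, one of 0.22 ± 0.11, and neither passed. With wild-type library 2 or 3 removed 1 fell, and with wild-type library 1 removed 3 rose. Txnip lost its call without wild-type library 2 or 3 and under robust variance moderation.

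The suppliers of citrate, acetyl-CoA and NADPH included another NADPH enzyme that fell beside Me1 and others that rose. Of 20 tested, 5 rose, 1 fell and 14 did not pass (median 0.18), beside 7.58% up and 6.94% down among all genes tested. Idh1, the cytosolic isocitrate dehydrogenase, fell from 598 ± 57.2 to 440 ± 26.3 CPM (log2 difference −0.44 ± 0.10, adjusted p = 0.0133; 0.0641 without knockout library 2). Nnt, the transhydrogenase of the inner mitochondrial membrane, rose from 54.8 ± 5.71 to 139 ± 5.92 CPM (1.35 ± 0.12, adjusted p = 2.20e-05). Some C57BL/6 substrains carry a deletion in Nnt, and since the labels name no substrain, substrain and genotype cannot be told apart here. H6pd, the pentose phosphate enzyme of the endoplasmic reticulum, rose from 489 ± 19.6 to 671 ± 30.1 CPM, and Slc25a1, the mitochondrial citrate carrier, from 99.6 ± 9.12 to 134 ± 6.05 CPM (SD, n = 3 each). Mdh1, the cytosolic malate dehydrogenase that supplies malic enzyme, was at 465 ± 49.2 and 448 ± 9.12 CPM and Aco1, the cytosolic aconitase, at 306 ± 9.49 and 318 ± 11.1 CPM, and neither passed. With wild-type library 2 or knockout library 1 removed 2 rose; with any of wild-type library 3 and knockout libraries 2 and 3 removed, or with totals that exclude mitochondrial genes, 3 rose. Slc25a1 lost its call when wild-type library 2 or knockout library 1 or 3 was removed (highest adjusted p = 0.0575).

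Among 16 tested genes that act on acetyl-CoA carboxylase, 3 rose, 0 fell and 13 did not pass (median 0.086). Over all genes tested, 7.58% rose and 6.94% fell. Trib3, a pseudokinase linked to carboxylase turnover, rose from 4.44 ± 2.06 CPM to 13.1 ± 5.08 (log2 difference 1.64 ± 0.38, adjusted p = 0.0117; 0.0949 without wild-type library 3). Hlcs and Btd, which attach biotin to carboxylases and recycle it, had log2 differences of 0.60 ± 0.18 and 0.44 ± 0.12 with adjusted p = 0.0425 and 0.0260, but Btd lost its call in each of the 6 fits without a library and Hlcs in 5. The AMP-activated kinase subunit Prkaa2 and the phosphatase subunit Ppp2ca had log2 differences of −0.12 ± 0.12 and −0.031 ± 0.11 and did not pass. Only 1 rose when wild-type library 2 or any one knockout library was removed, with no filter on low counts, and with totals that exclude mitochondrial genes, and 0 rose when wild-type library 3 was removed. Mid1ip1 was called as lower with totals that exclude mitochondrial genes, under robust variance moderation and with knockout library 2 removed (adjusted p = 0.0398, 0.0467 and 0.0310).

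Of 15 other elongase and desaturase genes and their partners, 2 rose, 0 fell and 13 did not pass (median 0.19). The shares over all genes tested were 7.58% risen and 6.94% fallen. Fads1, a desaturase of polyunsaturated fatty acids, rose from 454 ± 91.8 CPM to 669 ± 71.4 (log2 difference 0.57 ± 0.14, adjusted p = 0.0157), and Fads3 from 8.67 ± 0.890 to 19.7 ± 6.25 CPM (SD, n = 3 each). Fads2 and the electron donor Cyb5 had log2 differences of 0.33 ± 0.12 and 0.19 ± 0.11 and did not pass. Removing wild-type library 2 or 3 or knockout library 1 left 0 that rose, and the number was 4 under the replicate block and under robust variance moderation. Fads3 lost its call in 5 of the 6 fits with a library removed (highest adjusted p = 0.0877), and Fads1 in 3 (0.0585). Among paralogues of Scd1, Scd2 was at 5.40 ± 0.708 CPM in wild type, against 9.38 ± 2.27 CPM in knockout, and did not pass (adjusted p = 0.0620), and Scd3 and Scd4 were below the filter. These genes are near-identical in places, so reads may have been split among them.

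Downstream, of 13 tested genes of glycerolipid assembly 4 rose, 1 fell and 8 did not pass (median 0.30). Among all genes tested, 7.58% rose and 6.94% fell. Agpat2, which adds the second acyl chain, rose from 95.6 ± 17.8 CPM to 206 ± 4.86 (log2 difference 1.13 ± 0.12, adjusted p = 0.000134). The phosphatidate phosphatases Lpin1 and Lpin2 went opposite ways, Lpin1 rising from 355 ± 68.1 to 560 ± 67.1 CPM and Lpin2 falling from 501 ± 41.6 to 293 ± 24.8 CPM. Dgat2, the last enzyme of triglyceride synthesis, rose from 372 ± 18.1 to 487 ± 19.5 CPM (SD, n = 3 each). Gpam and Agpat6, which add the first acyl chain, had log2 differences of −0.33 ± 0.14 and 0.30 ± 0.14 and did not pass. Removing wild-type library 3 or knockout library 1 left 2 that rose, Dgat2 losing its call, and removing the former gave 2 that fell.

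**Figure D4:**
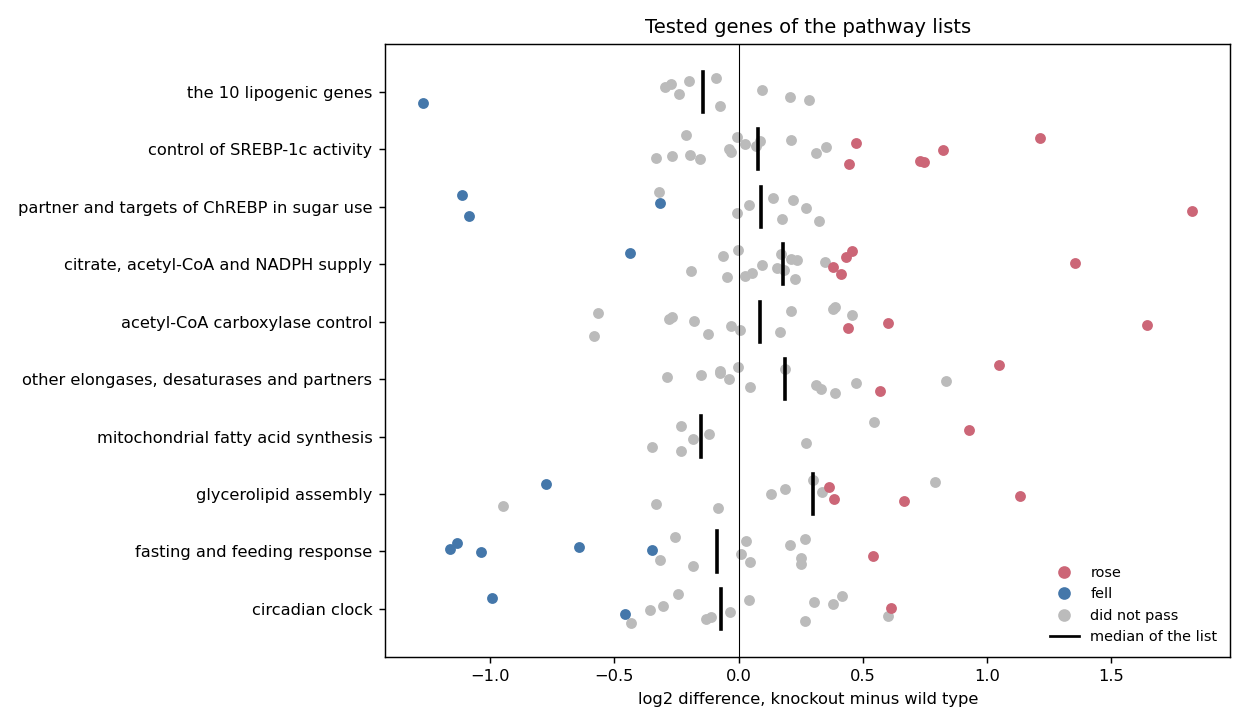
Log2 difference (knockout minus wild type) of each tested gene in the 10 lipogenic genes and the 9 lists, with genes that rose in red, fell in blue and did not pass in grey, and the list median as a black line. Me1 is the blue point of the top line, at −1.27.

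Because lipogenic transcripts follow meals, genes that respond to fasting and feeding were read beside them. Of 16 tested, 1 rose, 5 fell and 10 did not pass (median −0.085), beside 7.58% up and 6.94% down among all genes tested. Pdk4, a brake on pyruvate oxidation in fasting, fell from 14.6 ± 1.40 to 6.62 ± 0.626 CPM, Angptl4, a lipoprotein lipase inhibitor, from 171 ± 36.8 to 108 ± 16.4 CPM, and Cyp4a14, a fatty acid hydroxylase with near-identical copies, from 178 ± 48.7 to 85.5 ± 51.6 CPM, with overlapping groups. Cpt1a, the entry step of mitochondrial fatty acid oxidation, rose from 327 ± 23.5 to 476 ± 37.5 CPM (SD, n = 3 each). Pck1, of gluconeogenesis, had a log2 difference of 0.047 ± 0.10 and did not pass. With wild-type library 2 or 3 or knockout library 2 removed 1 fell, with knockout library 1 removed 2 fell, and with knockout library 3 removed 2 rose. Angptl4 lost its call without wild-type library 2 or 3 or knockout library 2, and Cyp4a14 in 4 of the 6 fits and under robust variance moderation. The part of feeding state in the values of Me1 was not tested.

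Hepatocyte markers were abundant in both groups: of 6 tested, 1 fell (Tat, from 2359 ± 99.1 to 1856 ± 149 CPM, no longer called once any library was removed) and 5 did not pass, among them Alb with a log2 difference of 0.046 ± 0.12. For this and the marker lists that follow, the shares over all genes tested were 7.58% risen and 6.94% fallen. With at most 6 tested genes in a list, 0 or 1 call cannot be told apart from those shares. Fat cells also express lipogenic genes at high levels. The adipocyte marker Adipoq had 2 counts in wild-type library 1 and 0 in the other 5 libraries. The adipocyte list (6 of 9 names analysed, 2 tested, 0 called) summed to 21.3 to 34.1 CPM in wild type, against 24.3 to 29.9 CPM in knockout, most of it Fabp4 and Adrb3; Adrb3 passed in limma trend, with the replicate block and without knockout library 3. Kupffer cell markers summed to 224 to 262 and 218 to 323 CPM (5 tested, 1 rose, Marco, called in 1 of the 6 fits with a library removed), cholangiocyte markers to 47.0 to 50.2 and 31.3 to 61.3 CPM (3 tested, 0 called), and stellate markers to 273 to 301 and 139 to 301 CPM (5 tested, 0 called). Of the stellate markers, Col1a1 was called as higher in limma trend, with the replicate block and with knockout library 1 or 3 removed, and Lrat as lower with knockout library 3 removed. Endothelial markers summed to 378 to 403 CPM in wild type, against 239 to 366 CPM in knockout (5 tested, 0 called, 3 at an unadjusted p under 0.05, beside 30.6% of all genes tested), with no overlap; Clec4g was called as lower with knockout library 2 removed, and Kdr with knockout library 3 removed. The part of these cell types in the result for Me1 was not tested.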

How the data were processed

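Per the labels' protocols, RNA from 6 livers was sequenced after selection of capped RNA, as pairs of reads of 36 cycles. A lane held 3 barcoded samples, and the protocols do not tie samples to lanes. The submitters' processing notes name Novoalign 2.05.33 and the mouse build mm9. They do not name the counting tool, the annotation release or the use of strand (not given in the sources used here). In the deposited table the authors gave raw whole-number counts per gene and library, and RPKM, a log2 ratio and p scores for pooled groups. Of counts from 1 to 19, 61.8% were even, so a count need not be 1 fragment. Lines that end early (4840 of 33495) kept the count columns from being recorded as counts by an automated unit check, so limma voom was the test and no negative binomial model was run.

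The filter on low counts asked for 1.83 CPM in 3 libraries, equal to 10 counts in a library of median size, and 15 counts in all. Scaling used the trimmed mean of M values, with factors from 0.965 to 1.03. After adding 0.5 to the counts, log2 CPM went into limma 3.58.1 (voom) in R 4.3.3, genotype as the only term, and p-values were Benjamini-Hochberg adjusted over 11794 genes. Intervals are 95% intervals of that fit. Ratios between 2 genes were compared with exact permutation tests over 4 pairs. Python 3.11.15, pandas 2.3.3 and matplotlib 3.10.9 were used for tables and plots. Counts were also simulated for 3 against 3 libraries and 11794 genes, 200 of them changed, with a dispersion of 0.02 for every gene. There 85% of 2-fold and 98% of 4-fold changes were recovered, with 6 false calls. The simulation did not copy the spread of each real gene, so these shares need not hold for these data.

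The 10 genes, the lists, the ratios and the tests were chosen with earlier results of these data known. Named were the 10 genes, up to 4 passing members (lowest p) and the 2 most abundant other members of each list, and the 3 profiles most like that of each passing lipogenic gene; Me2, Me3, Mid1ip1, Scd2, Scd3, Scd4, the marker genes named and Nr0b2 were added as paralogues or checks. Some genes that this rule names are not reported here. The deposited coordinates are on mm9, with starts raised by 1 to count from 1; promoter sequences are RefSeq's on GRCm38.p6, and no coordinate was converted. Libraries of a group came from separate mice, per the series' design text, and differed by more than counting noise (chi-square per degree of freedom 5.58 to 9.86).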

Additional observations from a re-analysis of the deposited data

How the results depend on the processing

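Me1 kept its direction and its call in 12 alternative fits (limma trend, no filter on low counts, median-of-ratios scaling, totals without mitochondrial genes, robust variance moderation, the replicate block, and each of 6 libraries left out), with log2 differences from −1.38 to −1.15, and the count of lipogenic genes past the threshold was 1 in each. The other 9 genes passed in none of them; the nearest was Acly, with a lowest adjusted p of 0.0553 (limma voom). Without 1 library, the genes that passed numbered 620 to 1567 over all genes, 340 to 844 of them higher and 280 to 797 lower, and the list genes 9 to 23 higher and 6 to 13 lower; in these fits fewer samples were used. Thrsp ranged from −0.34 to 0.14 in them, Srebf1 from −0.22 to 0.0072 and Acacb from −0.034 to 0.24, changing sign without a call. In the same fits the called genes per list numbered 1 to 5 for control of SREBP-1c, 2 to 6 for ChREBP and sugar use, 3 to 5 for citrate and NADPH supply, 0 to 2 for carboxylase control, 0 to 3 for elongases and desaturases, 1 to 2 for mitochondrial synthesis, 3 to 5 for glycerolipids, 2 to 6 for fasting and feeding and 1 to 5 for the clock. Robust moderation gave 5 for carboxylase control, 4 for elongases and 2 for mitochondrial synthesis, limma trend 2 for the last, no filter 1 for carboxylase control, and the replicate block 4 for elongases; the cause was not tested. With the replicate block, 1778 genes passed, Me1 was at −1.28 (adjusted p = 0.000552, limma voom), and among genes with a reported log2 difference Khk gained a call and Nr0b2 lost one (adjusted p = 0.0412 and 0.0552). Deviations of same-numbered libraries correlated at −0.019, −0.021 and −0.024 across genes, and those of differently numbered libraries at −0.0066 to 0.030. A correlation over all genes cannot show whether same-numbered libraries shared a day, lane or litter that acted on few genes. Low counts limit Me2, Trib3 and Me3. With 3 libraries a group, the exact test of a ratio cannot go below 0.1.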

Other observations

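Genes of mitochondrial fatty acid synthesis, the separate route that makes the precursor of lipoate, mostly did not pass. Of 8 tested, 1 rose, 0 fell and 7 did not pass (median log2 difference −0.15). Over all genes tested, 7.58% rose and 6.94% fell. Mecr, the last reductase of that route, was at 18.6, 23.1 and 18.3 CPM in wild type against 36.8, 40.3 and 36.0 CPM in knockout. Each knockout library was higher, by 0.93 ± 0.15 on the log2 scale (limma voom, adjusted p = 0.00196). Oxsm, the condensing enzyme, and Lias, lipoate synthase, had log2 differences of −0.23 ± 0.15 and −0.12 ± 0.14 and did not pass. In all 2 rose without knockout library 3, in limma trend and under robust variance moderation.

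Of 16 tested clock genes, 1 rose, 2 fell and 13 did not pass (median −0.072), beside 7.58% up and 6.94% down among all genes tested. Hlf, a clock-controlled transcription factor, was at 60.0, 62.8 and 68.3 CPM in wild type against 27.6, 35.5 and 32.6 CPM in knockout. It fell by 0.99 ± 0.13 on the log2 scale (limma voom, adjusted p = 0.000561). Nr1d1, the repressor REV-ERBα, rose from 50.5 ± 3.03 to 77.1 ± 11.6 CPM, and Rora, an activator at the same sites, fell from 181 ± 31.4 to 131 ± 6.92 CPM (SD, n = 3 each). Clock and Tef had log2 differences of −0.31 ± 0.14 and −0.11 ± 0.15 and did not pass. With wild-type library 3 removed the counts were 0 higher and 1 lower, without knockout library 1 or 2 the number lower was 1, and without wild-type library 1 it was 4. The time of day at which the livers were taken is not given in the labels.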
